A study of Mus musculus with 6 samples.

Results

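The genes described here are the receptors of the complement anaphylatoxins, C5ar1, C5ar2 and C3ar1, and Hc, which encodes complement C5. They were chosen by name, as the 4 rows of the deposited gene table whose Ensembl mouse IDs carry these symbols, out of 56980 genes in all. RNA was measured in tumor-associated macrophages (TAMs) sorted from tumors of female C57BL/6 wild-type (WT) mice and of C5aR-/- mice on the C57BL/6 background, both obtained at 6 to 8 weeks of age. Both groups had received ID8 cells, a mouse ovarian epithelial cancer line, by intraperitoneal injection, and abdominal tumors were taken 2 months after the injection. Live CD45+CD11b+Ly6G-F4/80+ cells were sorted, and the poly(A) RNA of 3 libraries per group was sequenced. The knockout was of the whole animal, so every host cell type lacked the receptor while the injected ID8 cells had not been changed. The part of the gene that was deleted is not given in the sources used here, nor whether each library came from 1 mouse, so that the p-values measure the spread between these libraries. WT_TAM and KO_TAM below are the libraries from WT and C5aR-/- mice.

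Complement is a cascade of plasma proteins in which C3 and C5 are cleaved. Cleavage of C5 frees C5a, a potent attractant of myeloid cells, and leaves C5b, which starts the membrane attack complex. Cleavage of C3 frees C3a. C5aR1, the product of C5ar1, is the main signaling receptor of C5a and works through inhibitory G proteins. C5aR2, encoded beside it, binds C5a without coupling to G proteins and recruits arrestins. C3aR, encoded by C3ar1, is the receptor of C3a. These receptors are carried by macrophages, neutrophils and mast cells, among others, and C5 itself comes mainly from hepatocytes.

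C5ar1 (ENSMUSG00000049130, chr7:16246743-16259540, GRCm38, minus strand) and C5ar2 (ENSMUSG00000074361, chr7:16234585-16244154, minus strand) are neighbors, with 2588 bases between them. No other protein-coding gene with deposited values lies between them. C3ar1 (ENSMUSG00000040552, chr6:122847138-122856161, minus strand) and Hc (ENSMUSG00000026874, chr2:34983331-35061438, minus strand) lie on other chromosomes. The coding sequence of C5ar1 holds 1053 bases, 99.7% of them in 1 exon, and that of C5ar2 holds 1074 bases, 97.6% of them in 1 exon. C3ar1 has 1431 coding bases in 1 exon, whereas the 5040 coding bases of Hc are spread over 41 exons. The coding sequences of C5ar1 and C5ar2 matched at 54.6% of 1005 aligned bases, and their longest identical stretch was 11 bases. The stretch, TTCCTGGTGGG, is at chr7:16248942-16248952 in C5ar1 and at chr7:16237795-16237805 in C5ar2. It is shown in capitals below with 15 bases on each side, from the GENCODE M21 transcripts, as the longest run common to the coding sequences of the paired genes. The untranslated parts were not compared, and how reads were shared between the genes was not tested.
C5ar1 coding: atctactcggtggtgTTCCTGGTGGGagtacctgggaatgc
C5ar2 coding: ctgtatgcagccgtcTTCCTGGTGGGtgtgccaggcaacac

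C5ar1, the deleted gene, and its neighbor C5ar2 were lower in KO_TAM, while C3ar1, on another chromosome, overlapped between the groups. The sequences just upstream of these receptor genes are shown for description only. They are from RefSeq (GRCm38.p6), on the minus strand, and end at the base before the farthest annotated start. C5ar1 is at chr7:16259541-16259588, C5ar2 at chr7:16244155-16244404 and C3ar1 at chr6:122856162-122856407. The C5ar1 stretch has 48 bases only, because the rest of its RefSeq window lies within an exon of a longer transcript. Capitals mark matches, on either strand, to AGGAAG (the core bound by ETS factors such as PU.1), TGACTCA (AP-1), CCAAT and TATAAA.
C5ar1 upstream: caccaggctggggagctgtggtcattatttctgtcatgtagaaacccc
C5ar2 upstream: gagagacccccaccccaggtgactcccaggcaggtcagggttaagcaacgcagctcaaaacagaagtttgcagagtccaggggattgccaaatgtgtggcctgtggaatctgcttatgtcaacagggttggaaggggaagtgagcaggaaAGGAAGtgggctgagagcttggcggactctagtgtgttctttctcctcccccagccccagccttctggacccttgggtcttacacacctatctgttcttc
C3ar1 upstream: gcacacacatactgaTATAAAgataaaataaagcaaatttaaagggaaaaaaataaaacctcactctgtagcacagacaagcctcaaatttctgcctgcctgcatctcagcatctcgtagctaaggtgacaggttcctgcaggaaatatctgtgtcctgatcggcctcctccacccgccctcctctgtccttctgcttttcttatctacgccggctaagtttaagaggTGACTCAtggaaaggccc
C5ar2 held AGGAAG beginning 100 bases before its start, and C3ar1 held TGACTCA beginning 18 bases before its start and TATAAA 231 bases before it. Of 32851 RefSeq promoter windows of 250 bases, 29.5% held AGGAAG, 4.5% TGACTCA, 33.8% CCAAT and 12.4% TATAAA, and the stretches printed for C5ar1 and C3ar1 are shorter than those windows. These matches describe the letters and were not tested against the expression values.

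The deposited values are TPM, a transcript abundance that is scaled for transcript length and sums to 1000000 in each library. They keep no sequencing depth, so no counting error can be given for a single value, and the limit on a value near 0 is unknown. Tests used limma on log2(TPM + 1) with the Benjamini-Hochberg adjustment over the 14776 genes that reached 1 TPM in 3 or more libraries. C5ar1 and C3ar1 passed this filter, and C5ar2 and Hc did not. The filter needs only 3 libraries, and C5ar1 passed it through its WT_TAM libraries alone. Differences are KO_TAM minus WT_TAM in log2(TPM + 1), and adding 1 makes the change of a low gene look smaller than it was.

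The macrophage identity of the libraries was checked first, since the receptors are read against it. All 10 macrophage markers were present in every library, with a summed TPM from 1947 to 7613 in WT_TAM and from 1745 to 6787 in KO_TAM. Adgre1, which encodes F4/80, had a TPM of 114, 45.8 and 25.4 in WT_TAM 1, 2 and 3 and of 91.1, 40.1 and 27.9 in KO_TAM 1, 2 and 3. Within each group the Adgre1 level and the summed level thus differed more than 3-fold while the groups overlapped. Over the 10 markers, 7 were higher in KO_TAM in the mean, the median log2 difference was 0.57, and Fcgr1 (0.82) and Aif1 (0.63) were higher without overlap. In sorted bulk RNA, fewer cells of a type and less RNA per cell cannot be told apart. Epithelial genes were also abundant, with a summed TPM of 9 markers from 2352 to 2638 in WT_TAM and from 2011 to 2644 in KO_TAM.

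**Figure D1:**
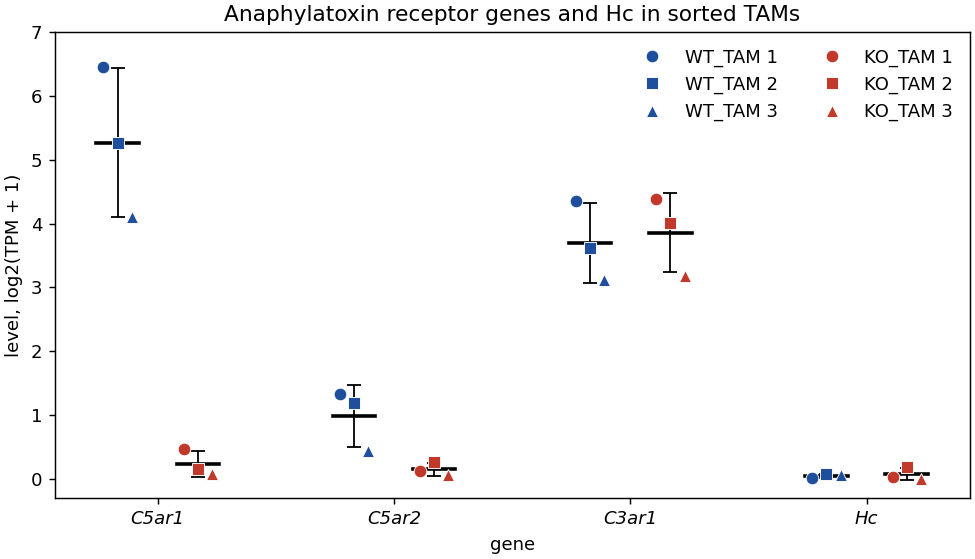
Level of the 4 genes in each library as log2(TPM + 1). Symbols are libraries, with blue for WT_TAM and red for KO_TAM, thick bars are group means and whiskers are the SD of 3 libraries. C5ar1 and C5ar2 do not overlap between the groups, C3ar1 overlaps almost fully, and Hc stays near 0 in all 6 libraries.

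C5ar1, the deleted gene, was the most abundant of the 4 in WT_TAM and nearly absent from KO_TAM. Its TPM in WT_TAM 1, 2 and 3 came to 86.5, 37.3 and 16.2. In KO_TAM 1, 2 and 3 it came to 0.38, 0.11 and 0.05, which was 0.814%, 0.236% and 0.107% of the WT_TAM mean. The groups were far apart, since the lowest WT_TAM value was 42.6 times the highest KO_TAM value. The mean was 46.7 ± 36.1 TPM in WT_TAM and 0.18 ± 0.18 TPM in KO_TAM (SD, n = 3), and the WT_TAM mean was higher than that of 77.8% of the tested genes. The log2 difference was -5.04 (SE 0.56, 95% interval -6.38 to -3.71), with an unadjusted p of 5.43e-05 and an adjusted p of 0.0666 from limma. The two-sided exact permutation test gave p = 0.1, the smallest that 3 libraries against 3 allow. The adjusted p from limma was 0.168 with no filter. Without KO_TAM 1 the difference was -5.16 and the adjusted p from limma 0.0221, but 0.0777 with no filter, and leaving out any other library gave from 0.073 to 0.329. C5ar1 thus missed the adjusted threshold with all 6 libraries, and so did every other gene, since limma called 0 of 14776 genes (0%) at an adjusted p under 0.05 with at least a 2-fold change. At an unadjusted p under 0.05, limma passed 2133 genes at any fold change. With a fold change of at least 2, 4.96% of genes passed, and 2.84% passed as lower in KO_TAM, among them C5ar1 but not C3ar1. A gene-level value does not say on which exon the remaining C5ar1 reads of KO_TAM lie.

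C5ar2, the second receptor of C5a, was expressed at a low level and was also lower in KO_TAM. Its TPM was 1.49, 1.28 and 0.35 in WT_TAM 1, 2 and 3 and 0.09, 0.20 and 0.04 in KO_TAM 1, 2 and 3. All 3 KO_TAM values lay below all 3 WT_TAM values, but the closest pair, WT_TAM 3 and KO_TAM 2, differed by 1.75-fold only. The mean was 1.04 ± 0.61 TPM in WT_TAM and 0.11 ± 0.08 TPM in KO_TAM (SD, n = 3), a ratio of 9.45. The log2 difference was -0.83, and with a pseudocount of 0.1 in place of 1 it was -2.32. In the fit with no filter, limma gave C5ar2 an SE of 0.25, an unadjusted p of 0.0156 and an adjusted p of 0.379. The exact permutation test again gave p = 0.1. Of the 28977 genes above 0 in at least 1 library, 8.88% had all KO_TAM values below all WT_TAM values. Among the 14776 tested genes, 12.5% were lower in this way, as C5ar1 was, and 21.3% did not overlap in either direction.

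C3ar1, the receptor of C3a, had like levels in both groups. Its TPM was 19.5, 11.3 and 7.63 in WT_TAM 1, 2 and 3 and 19.8, 15.1 and 8.03 in KO_TAM 1, 2 and 3. The values overlapped, and the spread within each group, 2.56-fold in WT_TAM and 2.46-fold in KO_TAM, was larger than the gap between the means of 12.8 ± 6.09 and 14.3 ± 5.91 TPM (SD, n = 3). The log2 difference was 0.16 (SE 0.42, adjusted p = 0.894 from limma). Its 95% interval of -0.84 to 1.15 spans a 0.559-fold to a 2.22-fold level in KO_TAM, so these libraries show neither a change nor its absence within that range. The sign turned to -0.14 without WT_TAM 3 and to -0.11 without KO_TAM 1.

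Hc was at or near 0 throughout. Its TPM was 0.01, 0.05 and 0.04 in WT_TAM 1, 2 and 3 and 0.02, 0.13 and 0.00 in KO_TAM 1, 2 and 3. No library reached 1 TPM, the groups overlapped, and the log2 difference was 0.02 (in the fit with no filter, SE 0.06 and limma adjusted p = 0.898). Markers of hepatocytes, the main source of C5 in the body, were likewise at or near 0, with a summed TPM of 6 genes from 1.52 to 3.89 in WT_TAM and from 0.45 to 1.29 in KO_TAM. Alb did not exceed 0.11 TPM, and Serpina1a and Fgb were listed at 0 in all 6 libraries.

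The order of the receptors differed between the groups. In every WT_TAM library C5ar1 exceeded C3ar1, by 4.43, 3.31 and 2.12 times in WT_TAM 1, 2 and 3, although the ranges of the genes over the 3 libraries overlapped. C5ar1 exceeded C5ar2 by 58.1, 29.2 and 46.2 times in the same libraries. In KO_TAM 1, 2 and 3 the C5ar1 to C3ar1 ratio was 0.0192, 0.0073 and 0.00623, so that C3ar1 was the most abundant of the 3 receptor genes. C5ar1 and C5ar2 no longer differed beyond their spread there, with ratios of 4.22, 0.55 and 1.25. TPM is scaled for length, so these ratios compare levels between genes.

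Because the libraries held different amounts of macrophage RNA, each receptor was also read against a macrophage index, the mean log2(TPM + 1) of the 10 markers. The index was 7.41, 6.30 and 5.90 in WT_TAM 1, 2 and 3 and 7.63, 6.88 and 6.04 in KO_TAM 1, 2 and 3. C3ar1 put all 6 libraries in the same order as the index, and C5ar1 did so within each group. C5ar1 minus the index was -0.95, -1.04 and -1.79 in WT_TAM 1, 2 and 3 and -7.17, -6.73 and -5.97 in KO_TAM 1, 2 and 3. The groups stayed apart by -5.36 (exact permutation p = 0.1). C3ar1 minus the index was -3.05, -2.68 and -2.79 in WT_TAM 1, 2 and 3 and -3.25, -2.88 and -2.87 in KO_TAM 1, 2 and 3. Read this way the SD of C3ar1 within a group was 0.19 in WT_TAM and 0.22 in KO_TAM, against 0.63 and 0.62 before. The groups still overlapped, and the difference of -0.16 did not pass (exact permutation p = 0.4). With Adgre1 alone in place of the 10 markers it was 0.28, so its direction depends on the markers used. C3ar1 came to 17.1%, 24.6% and 30.1% of the Adgre1 TPM in WT_TAM 1, 2 and 3 and to 21.7%, 37.6% and 28.8% in KO_TAM 1, 2 and 3. C5ar2 minus the index was -5.55 ± 0.50 in WT_TAM and -6.70 ± 0.76 in KO_TAM (SD, n = 3), a difference of -1.15 (exact permutation p = 0.2). In KO_TAM 1, 2 and 3 the C5ar2 level itself was near 0, at 0.12, 0.26 and 0.06 in log2(TPM + 1). Its KO_TAM values against the index are therefore mainly the index with its sign turned, as are those of C5ar1. Once the index was subtracted the C5ar2 groups overlapped, at -6.09 in WT_TAM 1 and -5.98 in KO_TAM 3. They were apart with a pseudocount of 0.1 (-2.65, exact permutation p = 0.1) and with quantile normalization (-1.12, exact permutation p = 0.1), and the difference was -0.71 against Adgre1 alone and -0.75 without KO_TAM 1. For Hc the difference was -0.30 (exact permutation p = 0.6), which at these levels is mainly the difference of the index.

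**Figure D2:**
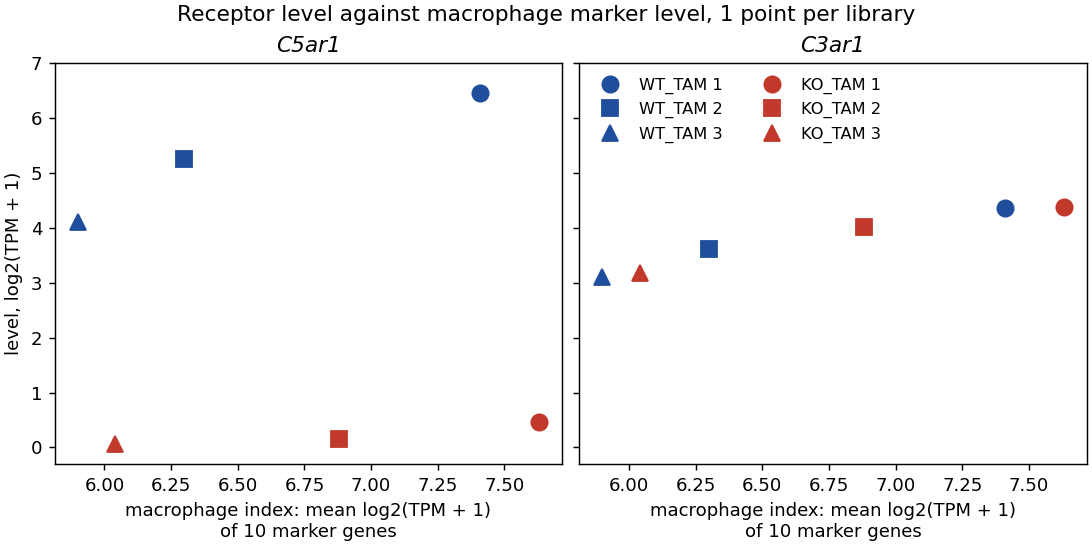
Levels of C5ar1 (left) and C3ar1 (right) in log2(TPM + 1) against the macrophage index, the mean log2(TPM + 1) of 10 marker genes, with 1 point per library, blue for WT_TAM and red for KO_TAM. C3ar1 is higher where the index is higher, whatever the group, from 3.11 in WT_TAM 3 to 4.38 in KO_TAM 1, whereas C5ar1 stays under 0.5 in KO_TAM at every index value.

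Markers of other cells that carry these receptors also differed between the groups, although the sort took Ly6G- cells. The summed TPM of 10 neutrophil markers was 1076, 2526 and 643 in WT_TAM 1, 2 and 3 and 226, 429 and 29.0 in KO_TAM 1, 2 and 3. All 9 tested neutrophil markers were lower in KO_TAM in the mean, and 5 of them passed the unadjusted threshold, as 2.84% of all tested genes did as lower. Ly6g itself reached 4.94 TPM in WT_TAM 2 and was listed at 0 in KO_TAM 1 and 3. For 10 mast cell markers the summed TPM was 172 to 202 in WT_TAM and 70.5 to 92.8 in KO_TAM, where Kit, which other cells also express, made up most of it. Of the 8 tested mast cell markers 6 passed as lower, against 2.84% of all tested genes. Kit passed as higher, as 314 of all 14776 tested genes did. The other tested marker, Gata2, was also higher in the mean (log2 difference 0.47), did not pass and overlapped between the groups. The mast cell protease gene Mcpt4 was at 12.4, 12.02 and 22.4 TPM in WT_TAM 1, 2 and 3, at 0.25 TPM in KO_TAM 1 and at 0 in the other KO_TAM libraries. Mcpt4 and Fcer1a, both among those that passed as lower, met the filter through their WT_TAM libraries alone, as C5ar1 did. Tpsab1 was at 0 in all 3 KO_TAM libraries. C5ar1 was highest in WT_TAM 1, where the macrophage markers were highest, whereas the neutrophil sum was highest in WT_TAM 2 and the mast cell sum in WT_TAM 3. The summed TPM of 6 mesothelial markers was 1068 to 1448 in WT_TAM and 766 to 1066 in KO_TAM, a narrow gap. Of these markers 5 were lower in KO_TAM in the mean, with a median log2 difference of -0.98 over the 6. Without overlap 4 were lower, against 12.5% of all tested genes, and 3 passed as lower at the unadjusted threshold. The other marker, Msln, was higher in KO_TAM without overlap (0.88, limma adjusted p = 0.0922). The sums for dendritic, T, NK and B cells, fibroblasts and endothelium overlapped. The part of these cells in the C5ar1 and C5ar2 values was not tested.

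**Figure D3:**
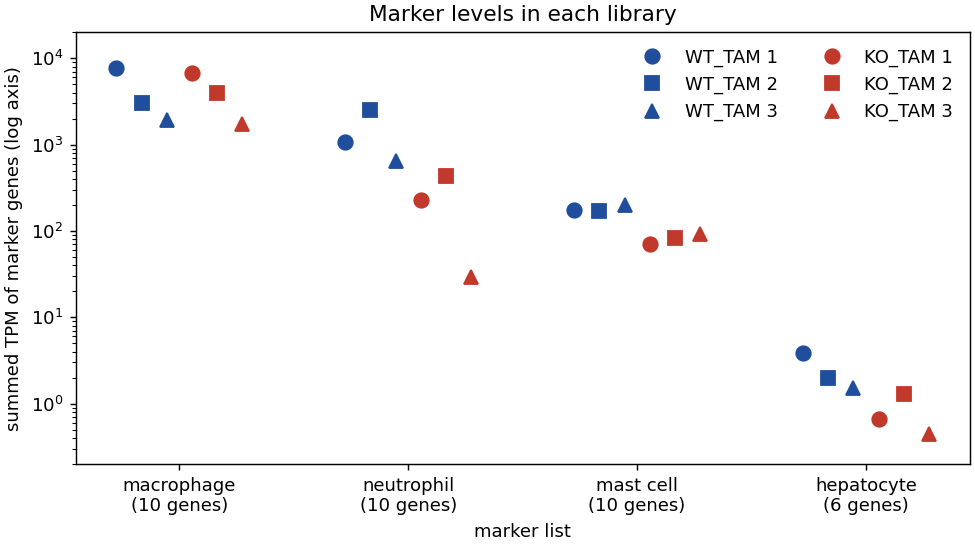
Summed TPM (log axis) of the markers of macrophages, neutrophils, mast cells and hepatocytes, with 1 symbol per library, blue for WT_TAM and red for KO_TAM. Macrophage sums overlap between the groups, neutrophil and mast cell sums lie lower in all 3 KO_TAM libraries, and hepatocyte sums stay under 4 TPM.

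The genes around the C5ar1 and C5ar2 pair were compared next. Of the 10 protein-coding genes on each side, 15 passed the filter, and their log2 differences ran from -0.15 to 0.93 with a median of 0.10. None of the 15 passed the unadjusted threshold in limma, with or without the 2-fold limit, against 4.96% of all tested genes with it. All 3 whose groups did not overlap were higher in KO_TAM. Nearest on the C5ar2 side, Dhx34, an RNA helicase gene, differed by 0.24 (SE 0.21, limma adjusted p = 0.646). Beyond it, Meis3, a homeobox gene, differed by 0.27 and Kptn by -0.15. Nearest on the C5ar1 side, Inafm1 differed by 0.10 (SE 0.19, limma adjusted p = 0.844), with a TPM of 5.50, 5.07 and 6.01 in WT_TAM 1, 2 and 3 and 5.25, 6.50 and 6.25 in KO_TAM 1, 2 and 3. Beyond it, Ccdc9 differed by -0.11 and Bbc3, which encodes the apoptosis protein PUMA, by 0.45. None was lower in KO_TAM without overlap, against 12.5% of all tested genes, and the 3 of 15 without overlap are near the 21.3% of all tested genes.

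**Figure D4:**
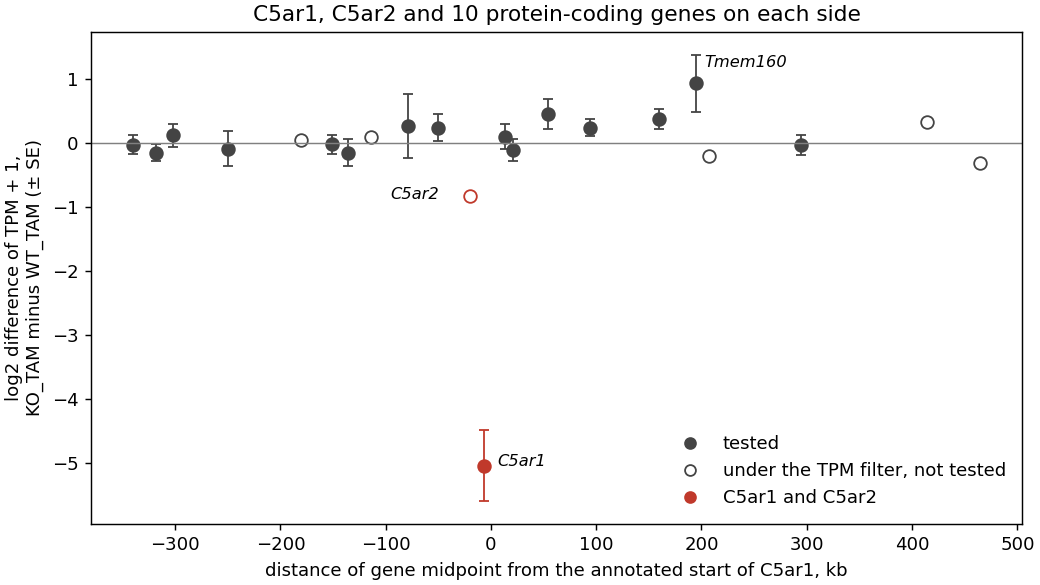
Log2 difference of TPM + 1 (KO_TAM minus WT_TAM, whiskers are the SE from limma) of C5ar1, C5ar2 and 10 protein-coding genes on each side, by distance of the gene midpoint from the annotated start of C5ar1 in kb. Filled points were tested and open points lay under the TPM filter. C5ar1 stands at -5.04 and C5ar2 at -0.83, while the tested neighbors lie between -0.15 and 0.93.

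The genes whose pattern over the 6 libraries was most like that of each receptor were sought by the Pearson correlation of log2(TPM + 1) over the tested genes. For C5ar1 the 6 points form 2 separate groups, so that any gene that separates them ranks high. The 3 most alike were Gm13429 (r = 0.999), Gm44033 (r = 0.993) and Msmo1 (r = 0.991), which encodes an enzyme of cholesterol synthesis. Msmo1 had a TPM of 28.3, 27.7 and 22.4 in WT_TAM 1, 2 and 3 and of 13.0, 11.6 and 11.6 in KO_TAM 1, 2 and 3. For C5ar2 the most alike were Atad1 (r = 0.995), Tmem178 (r = 0.994) and Ddx1 (r = 0.991). Tmem178 stood above C5ar2 in every library, with 5.0, 5.25 and 1.12 TPM in WT_TAM 1, 2 and 3 and 0.61, 0.89 and 0.41 TPM in KO_TAM 1, 2 and 3.

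C3ar1 was most like Klf6 (r = 0.998), a transcription factor gene, Ighv1-7 (r = 0.996), an immunoglobulin segment with many similar copies, and Osm (r = 0.992), which encodes the cytokine oncostatin M. Osm had a TPM of 64.2, 20.5 and 6.94 in WT_TAM 1, 2 and 3 and of 51.2, 34.4 and 7.96 in KO_TAM 1, 2 and 3. Of the 10 macrophage markers, Cd14 was most like C3ar1 (r = 0.98) and Aif1 least (r = 0.26), with a median r of 0.93. Against C5ar1 the same markers ran from -0.80 for Aif1 to 0.56 for Itgam, with a median of -0.10. Each r rests on 6 libraries that differ in their amount of macrophage RNA and describes them only. Hc was left out because its values were too near 0.

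Upstream of the receptors stand the complement components that lead to the cleavage of C3 and C5, with C3 itself among them. Of 13 such genes 11 were tested, 0 passed as higher and 2 as lower at the unadjusted threshold, which 2.84% of all tested genes passed as lower. Their median log2 difference was -0.54, against -0.05 over all tested genes, with 3 genes higher and 8 lower in the mean. The 3 higher genes, named after their values were seen, were C1qa (0.48), C1qb (0.47) and C1qc (0.47), and each overlapped between the groups. C2, a serine protease of the classical and lectin convertases, had a TPM of 27.0, 50.4 and 63.7 in WT_TAM 1, 2 and 3 and of 19.3, 23.5 and 13.4 in KO_TAM 1, 2 and 3. Its groups did not overlap, and it differed by -1.23 (SE 0.35, limma adjusted p = 0.210). C4b, the other convertase subunit of these routes, differed by -1.52 (SE 0.60, limma adjusted p = 0.326), from 373, 148 and 109 TPM in WT_TAM 1, 2 and 3 to 104, 82.0 and 29.1 TPM in KO_TAM 1, 2 and 3. Its value is uncertain, since reads of the near-identical C4a can be counted for it. C3 and Cfb, named after their values were seen, are the source of C3a and the protease of the alternative convertase. C3 was abundant in both groups, at 616 ± 388 TPM in WT_TAM and 418 ± 199 TPM in KO_TAM (SD, n = 3), and overlapped. Cfb did not overlap, at 63.7 ± 14.1 TPM in WT_TAM and 32.6 ± 4.85 TPM in KO_TAM, and differed by -0.93 (limma adjusted p = 0.145). The RNA of the C3a precursor was therefore present in every library in which that of the C5a precursor was near 0.

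Of 5 proteases outside the convertases that can cleave C5 or C3, 3 were tested and 1 passed as lower at the unadjusted threshold, against 2.84% of all tested genes. It was F10, which encodes coagulation factor X (log2 difference -1.80, SE 0.72, limma adjusted p = 0.331). Its TPM was 62.6, 22.5 and 18.2 in WT_TAM 1, 2 and 3 and 7.36, 21.01 and 2.68 in KO_TAM 1, 2 and 3, so the groups overlapped through KO_TAM 2. The median of the 3 was -1.52, the value of Elane, a neutrophil elastase gene that is also in the neutrophil marker list. It was -0.67 with the filter at 5 TPM and -0.76 over all genes of the list above 0. Ctsd, named after its values were seen, was the most abundant of the 3 and was higher in the mean (0.45). It was at 602 ± 268 TPM in WT_TAM and 908 ± 613 TPM in KO_TAM (SD, n = 3), and the groups overlapped. Of the 4 genes of carboxypeptidases that trim C3a and C5a, Cpm and Cpn1 were tested and 0 passed, against 4.96% of all tested genes. Cpm was at 1.97 ± 0.49 TPM in WT_TAM and 1.27 ± 1.21 TPM in KO_TAM, and Cpn1 at 1.78 ± 0.64 and 3.43 ± 1.04 TPM (SD, n = 3).

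The terminal pathway, which C5b starts, was hardly expressed. Of its 7 genes 2 were tested, 2 were listed at 0 in all 6 libraries, and 0 passed, against 4.96% of all tested genes. C8g, which encodes a chain of C8, was at 1.99 ± 0.62 TPM in WT_TAM and 1.40 ± 0.30 TPM in KO_TAM, and Cd59a, an inhibitor of the complex, at 14.6 ± 2.93 and 7.76 ± 6.95 TPM (SD, n = 3). The median log2 difference of these 2 genes was -0.70, and over all genes of the list above 0 it was -0.15. C6, under the filter and named after its values were seen, was higher in KO_TAM without overlap, at 0.30 ± 0.14 TPM in WT_TAM and 1.16 ± 0.36 TPM in KO_TAM (SD, n = 3).

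Downstream of the receptors, all 19 genes of G proteins, arrestins, receptor kinases and effectors were tested. At the unadjusted threshold with a 2-fold change 0 passed, against 4.96% of all tested genes. Of the 19 genes 8 were higher and 11 lower in the mean, with a median of -0.04, close to the -0.05 of all tested genes. Gnai2, an inhibitory G protein subunit, had a TPM of 240, 226 and 213 in WT_TAM 1, 2 and 3 and of 249, 256 and 220 in KO_TAM 1, 2 and 3, and Gnb2, a beta subunit, differed by 0.19 (SE 0.16, limma adjusted p = 0.617). These partners are shared with many other receptors. Grk5, a receptor kinase gene, and Prex1, a Rac activator gene, were the only 2 of the 19 whose groups did not overlap, at -0.73 and 0.55, and are named for that, against 21.3% without overlap over all tested genes.

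Among 14 genes known from cell studies to respond to C5a, all 14 were tested and 1 passed the unadjusted threshold, against 4.96% of all tested genes. It was Vegfa, an angiogenic factor gene, which was higher in KO_TAM by 1.26 (SE 0.40, limma adjusted p = 0.239). Its TPM was 52.9, 65.7 and 47.1 in WT_TAM 1, 2 and 3 and 70.7, 152 and 217 in KO_TAM 1, 2 and 3, and the groups did not overlap. The median of the list was -0.23, with 6 genes higher and 8 lower in the mean. Its direction was not stable, since it turned to 0.22 without WT_TAM 1 and to 0.28 without KO_TAM 3. With the index as a covariate it kept its direction, at -0.59. Of the other members, 3 were chosen to be named after their values were seen. Il6, a cytokine gene, ranged from 3.59 to 118 TPM in WT_TAM and from 0.25 to 12.7 TPM in KO_TAM, and its difference of -2.36 had an SE of 1.36, the widest of the 14. The Fc receptor genes Fcgr3, which activates, and Fcgr2b, which inhibits, differ in their known response to C5a, since C5a raises the first and lowers the second. Here Fcgr3 differed by 0.65 (SE 0.54) and Fcgr2b by 0.85 (SE 0.50), and both overlapped between the groups.

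Other receptors, of C3 fragments and of chemoattractants, were described next. C5ar1 is the deleted gene, so its level is no yardstick for theirs. The cells that carried these RNAs were not told apart. Of the 5 receptors of C3 fragments all were tested and 0 passed, against 4.96% of all tested genes, so that 0 of 5 tells little about them. Their median was 0.28, which turned to -0.43 without KO_TAM 1 and was 0.81 without KO_TAM 3. In the mean 3 of them were higher in KO_TAM and 2 lower. The 3 higher, named after their values were seen, were Itgax (1.02), Vsig4 (0.70) and Cr2 (0.28), and each overlapped between the groups. The 2 lower, Itgb2 and Itgam, were the most abundant of the 5. Itgb2, the beta chain of complement receptors 3 and 4, had a TPM of 130 ± 64.3 in WT_TAM and 89.9 ± 39.4 in KO_TAM, and Itgam, which encodes CD11b, 141 ± 117 and 78.0 ± 37.1 TPM (SD, n = 3). Of 14 chemoattractant receptor genes 5 were tested, 4 were listed at 0 in all libraries, and 0 passed, again against 4.96% of all tested genes. Their median was -0.12. Cmklr1, the chemerin receptor gene, was at 22.1 ± 15.9 TPM in WT_TAM and 20.8 ± 8.59 TPM in KO_TAM, and Ptafr, the platelet-activating factor receptor gene, at 11.6 ± 4.89 and 12.5 ± 10.5 TPM (SD, n = 3). The 10 tested receptors of these lists lay between -0.65 and 1.02.

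**Figure D5:**
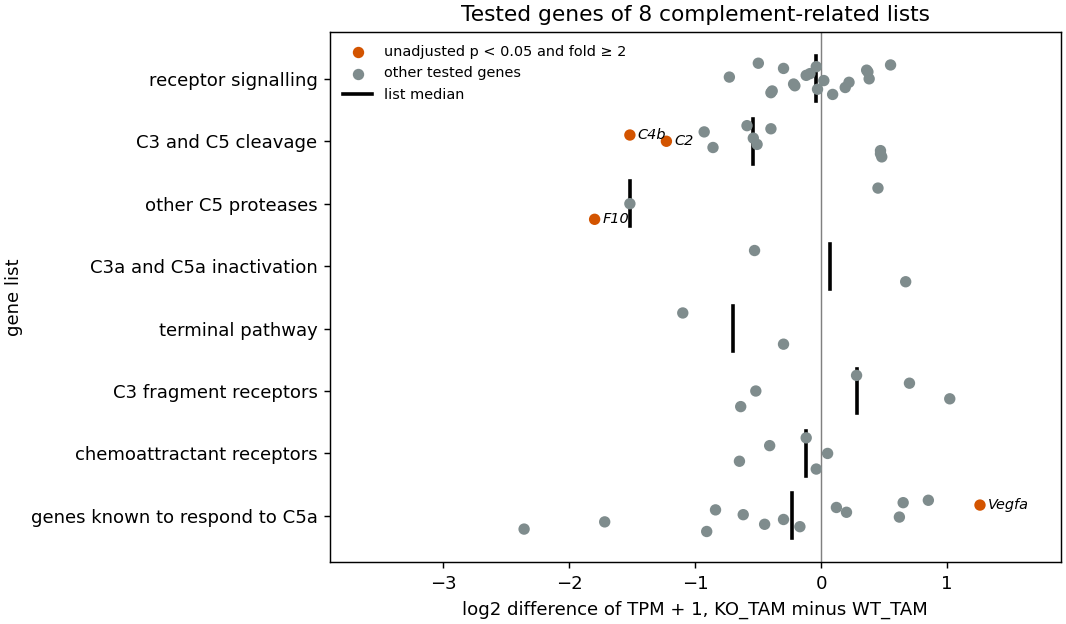
Log2 difference of TPM + 1 (KO_TAM minus WT_TAM) of each tested gene in 8 complement-related lists, with the list median as a black line. Orange points are genes with an unadjusted p under 0.05 and at least a 2-fold change. These are C2 at -1.23, C4b at -1.52, F10 at -1.80 and Vegfa at 1.26.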

How the data were processed

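TAMs of WT and C5aR-/- mice were compared, 3 libraries per group, with groups from the sample titles; the study's legends give 4 mice per group. The authors built stranded poly(A) libraries, used fastp to trim paired reads, HISAT2 to align them and StringTie to assemble transcripts. The submitters' processing notes also name RSEM, DESeq2 and mm10; versions are not given in the sources used here. The methods name FPKM, but the deposited values are TPM per gene, summing to 1000000, so library depth is unknown. The deposited columns of group means equal the mean of the 3 libraries and were not used.

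Here, TPM was transformed as log2(TPM + 1) and tested with limma 3.58.1 (eBayes with trend, R 4.3.3) over genes that reached 1 TPM in 3 or more libraries, since count tests need counts. The script was tested on simulated data. Values relative to the macrophage index were compared with two-sided exact permutation tests (Python 3.11.15, numpy 2.4.6, pandas 2.3.3, scipy 1.17.1). Coding sequences were aligned with Biopython 1.88. Symbols and coordinates are from GENCODE M21 (GRCm38, the same assembly as mm10).

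The members, gene lists and tests were chosen with earlier results of these data known. Named genes are the members, the 3 nearest tested neighbors on each side of the C5ar1-C5ar2 pair, the 3 most correlated genes per member except Hc, and in each list those past the unadjusted threshold or else the 2 most abundant; genes named otherwise are said to be. Alternatives were other pseudocounts, filters, scalings, covariates, a replicate block and leaving out each library; combinations of these with no filter were added after the data were seen.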

Additional observations from a re-analysis of the deposited data

How the results depend on the processing

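C5ar1 kept its direction in all 14 alternatives, with limma adjusted p-values from 0.0221 to 0.329, and passed with the macrophage index as a covariate (-5.31, adjusted p = 0.0459) and without KO_TAM 1. Both passes need the filter, which C5ar1 met through WT_TAM alone. With no filter its adjusted p was 0.152 with the covariate and 0.0777 without KO_TAM 1. Leaving out each library gave C5ar1 differences from -5.63 to -4.45. C5ar2 moved to -2.32 with a pseudocount of 0.1 and kept its direction in the fits with no filter, with adjusted p-values from 0.165 to 0.835. C3ar1 turned to -0.09 with the covariate and ran from -0.14 to 0.50 with each library left out, and relative to Adgre1 alone it was 0.28. Hc relative to Adgre1 alone was 0.15, and relative to the index it ran from -0.75 to 0.11 with each library left out. C5ar2 and Hc have no value with the filter raised to 5 TPM, which removes them.

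The count at the adjusted threshold was 2 with eBayes without trend, 33 with the covariate and 0 to 356 with each library left out, the most without KO_TAM 1. In these 8 settings with no filter, chosen after seeing the data, it was 0 throughout in limma, with 2776 genes at an unadjusted p under 0.05 in the fit of all libraries. The unadjusted count of 733 was 475 with the filter at 5 TPM, which tests fewer genes, and 567 to 1266 with each library left out. The count of genes without overlap was 3645 to 6209 in smaller groups. Otherwise the cause was not tested. The medians of the 8 lists moved by less than 1 SD in 107 of 111 alternatives, and the direction of the medians for receptors of C3 fragments, C5a responses, chemoattractant receptors, carboxypeptidases and signaling turned in at least 1 of them, and 1 list had no tested gene with the filter at 5 TPM.

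Same-numbered libraries of the groups deviated together by r = 0.19, -0.01 and 0.27, and differently numbered ones by r from -0.23 to 0.09. These values do not settle whether the libraries were paired by replicate number. With the replicate number as a block, C5ar1 differed by -5.04 (limma adjusted p = 0.105), C5ar2 by -0.83, C3ar1 by 0.16 and Hc by 0.02, with 0 genes past the adjusted and 811 past the unadjusted threshold.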
